A study of Mus musculus with 4 samples.

Results

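The gamma crystallins are the genes whose symbol in the array annotation is Cryga, Crygb, Crygc, Crygd, Cryge, Crygf, Crygn or Crygs. They were measured by 11 probes, with 2 probes for Crygd, 3 for Crygn and 1 for each of the others, among 45263 usable probes. All 8 genes were among the 11518 genes tested. RNA was profiled from mouse lenses at postnatal day 6 on Illumina MouseWG-6 v2.0 bead arrays, with 1 lens on each of 4 arrays.

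The cKO lenses (cKO A and cKO B) carried a Celf1 allele with a lacZ knock-in, which removes the gene in all cells, and a Celf1 flox allele in which exon 5 lies between loxP sites. Cre recombinase came from the Pax6GFPCre transgene, which is active from the lens placode onward and also outside the eye in the pancreatic lineage. The Control lenses (Control A and Control B) carried the same lacZ knock-in allele beside a normal allele, so both groups had lost 1 copy of Celf1 in every cell. All mice were on a mixed C57BL/6 and FVB background. Nothing in the labels says whether the lenses of a group came from separate animals, and p-values measure only the spread between these lenses.

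Crystallins are the main soluble proteins of the lens, and their dense packing in the fiber cells gives the lens its transparency and refractive power. Gamma crystallins are small monomers folded into Greek key motifs. They are made mostly as lens epithelial cells elongate into fiber cells, where their genes are under the control of transcription factors such as Maf, Sox1 and Prox1. Mutations in several of them cause cataract in mice and humans. Crygs is the member best known from the outer fiber cells of the mature lens, and Crygn is a more distant relative.

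The probes are shown because Cryge and Crygf, the members that stood apart below, were read by closely similar probes at the ends of their transcripts. Each line gives the last 30 bases of the probe, 5′ to 3′, as listed in the array annotation, with the polyadenylation signal AATAAA in capitals.
Cryge: accattttctccatctggacagtAATAAAa
Crygf: ctgccctttcatcatttggaagttAATAAA
Cryga: cccatatatgcAATAAAtaatcaacctgtg
Over their full length of 50 bases, the Cryge probe (ILMN_2693134) and the Crygf probe (ILMN_1256721) matched at 39 of 46 aligned bases, more identical bases than any other pair among the 11 probes. How far either probe also binds the other transcript was not tested. The annotation places the Crygf probe on the forward strand of chromosome 1 and the Cryge and Cryga probes on the reverse strand. It does not name its genome build, so probe positions are not given here.

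Probes for the brightest members lie further inside the transcript and are shown whole for comparison with the end-of-transcript probes.
Crygc: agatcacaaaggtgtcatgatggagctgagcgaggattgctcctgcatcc
Crygd, probe 1: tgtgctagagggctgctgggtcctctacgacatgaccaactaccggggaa
Crygd, probe 2: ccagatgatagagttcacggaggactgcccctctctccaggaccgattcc
Crygs: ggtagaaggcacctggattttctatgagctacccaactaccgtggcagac
The Crygd probe 1 and the Crygs probe matched at 33 of 47 aligned bases.

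Every gamma crystallin probe gave a signal above background, with a detection p of 0 in 44 of 44 readings. Each reading was the mean of 24 to 56 beads, and the standard error over the beads was 2.52% to 11.1% of the signal. The 9 probes for Cryga, Crygb, Crygc, Crygd, Crygn and Crygs read 16107 to 41745 intensity units before normalization and held ranks 1 to 57 from the brightest probe of an array. The Cryge and Crygf probes were far dimmer than these, but levels cannot be set against each other across probes.

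**Figure D1:**
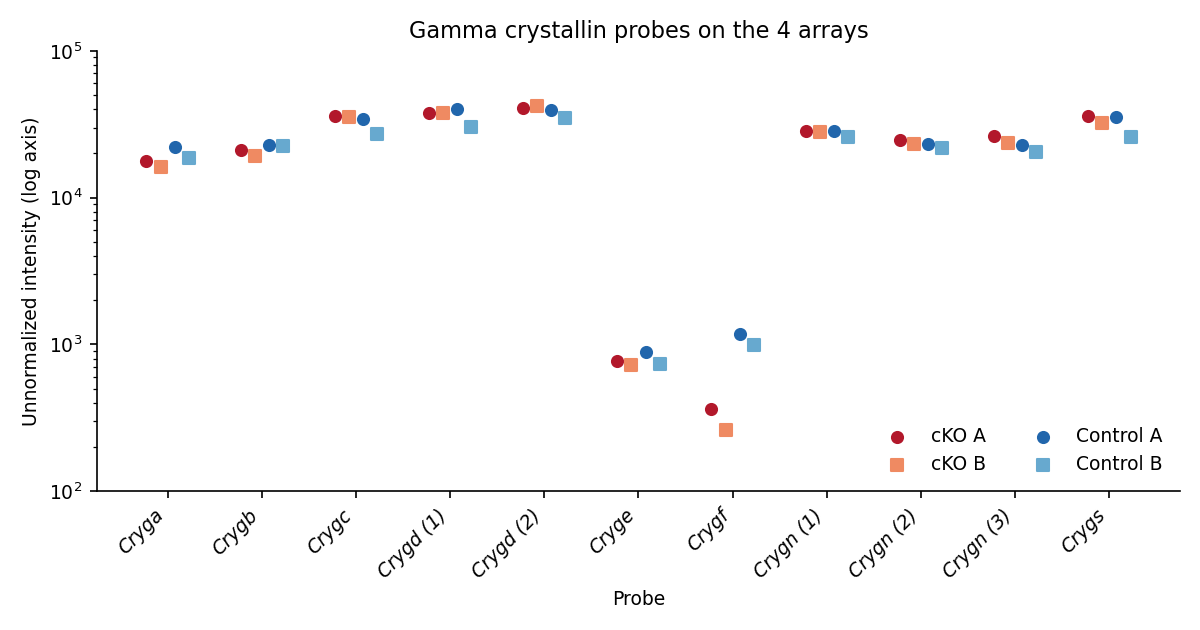
Intensity before normalization (log axis) of the 11 gamma crystallin probes on the 2 cKO and 2 Control arrays, 1 point per array, with probes of the same gene numbered. Crygf read 361 and 259 on the cKO arrays against 1179 and 985 on the Control arrays, while the other probes of the 2 genotypes lay close together.

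Whole arrays differed in brightness. The 99th percentile stood at 3209 (cKO A), 3444 (cKO B), 2158 (Control A) and 1699 (Control B), which makes the cKO mean 1.72 times the Control mean. At the brightest probe of each array the same ratio was 1.09. Most gamma crystallin probes sit at this bright end, so their fold changes turned on how the arrays were scaled to each other. The deposited normalized table multiplied the background-subtracted intensities by 0.913 and 0.889 for the cKO arrays and by 1.46 and 1.93 for the Control arrays. That brought the ratio at the 95th percentile to 1.0 and left it at 0.585 at the brightest probe. As the brighter pair of arrays is also the cKO pair, an effect of brightness cannot be told apart from one of genotype.

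**Figure D2:**
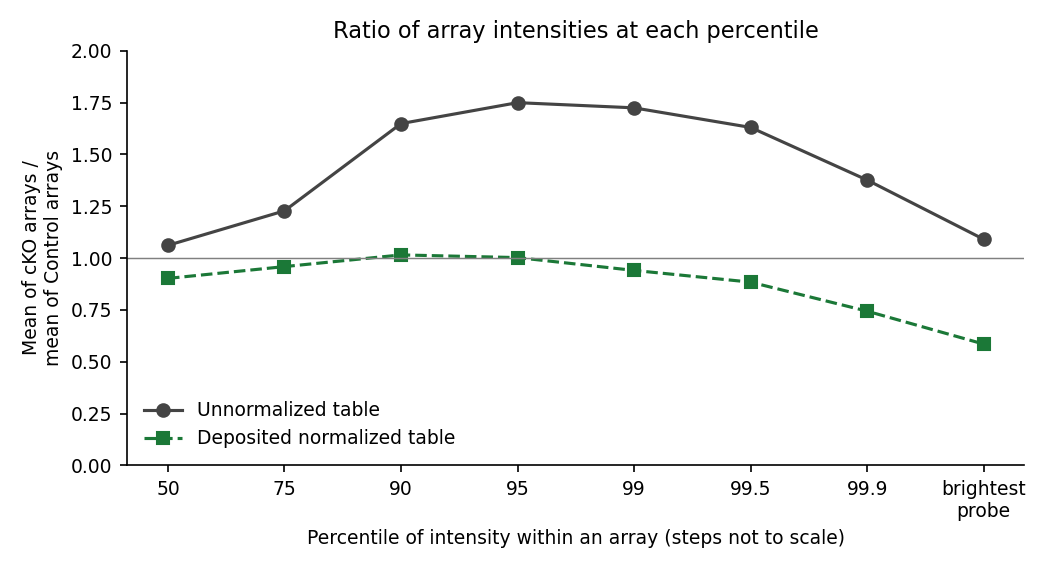
Mean intensity of the 2 cKO arrays over that of the 2 Control arrays (y axis) at percentiles of intensity within an array (x axis, steps not to scale), for the unnormalized table (circles) and the deposited normalized table (squares). The unnormalized ratio fell from 1.75 at the 95th percentile to 1.09 at the brightest probe, and the normalized ratio from 1.0 at the 95th percentile to 0.585.

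The study asked what the loss of Celf1, an RNA-binding protein that controls the splicing, stability and translation of mRNAs, changes in the lens. Celf1 itself, over 4 of its 5 probes, read 7.45 and 6.95 on the log2 scale in cKO lenses against 8.71 and 8.55 in Control lenses. It was lower by 1.43 ± 0.19 (SE, n = 2 and 2; limma adjusted p = 0.00977). Whether those probes lie in the deleted exon was not determined. Xist, the RNA of the inactive X chromosome, was detected on both cKO arrays and on neither Control array, and the Y-linked gene Ddx3y fell by 3.09 on the log2 scale in cKO lenses (limma adjusted p = 0.0195). Ddx3y was still detected on both cKO arrays, at 6.81 in cKO A and 4.82 in cKO B against 8.99 and 8.82 in Control lenses. Uty, the other Y-linked gene tested, was detected on the cKO arrays alone and differed by 0.29 (limma adjusted p = 0.226). The labels do not give the sex of the lenses. An effect of sex cannot be told apart from one of genotype where these RNAs differ.

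For the main comparison, intensities were background corrected, quantile normalized and averaged per gene on the log2 scale. A gene was called where limma's adjusted p was below 0.05, the log2 fold change was beyond 0.58 and the mean log2 intensity was above 4.6. Of the 8 gamma crystallin genes, 4 were called, and all of these were lower in cKO lenses: Crygf, Cryge, Cryga and Crygb. Of all genes tested, 11.7% were called and 5.64% were called lower in cKO lenses. The cKO and Control lenses did not overlap for 5 of the 8 genes, with cKO lower, as for 29.7% of all genes tested. The median log2 fold change of the 8 genes was -0.41, beside 0.01 over all genes tested. In whole lenses, fewer fiber cells and less RNA per fiber cell cannot be told apart.

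Crygf, whose mutations cause dominant cataract in mice, changed the most of the 8 genes. It read 7.99 in cKO A, 7.38 in cKO B, 10.43 in Control A and 10.48 in Control B on the log2 scale. Both cKO lenses lay far below both Control lenses, and the Control lenses were nearly equal. The difference was -2.77 ± 0.21 (SE, n = 2 and 2; limma adjusted p = 0.00214), a 6.82-fold lower level in cKO lenses. Before normalization, the probe fell from rank 788 and 759 among all probes on the Control arrays to rank 3417 and 4689 on the cKO arrays.

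Cryge, the close relative of Crygf, read 9.17 in cKO A, 8.96 in cKO B, 10.00 in Control A and 10.06 in Control B. Both cKO lenses were again lower. The difference was -0.97 ± 0.15 (SE, n = 2 and 2; limma adjusted p = 0.0129), 1.96-fold lower in cKO lenses. Before normalization the Cryge intensities overlapped between the genotypes, at 776.5 and 721.9 against 893.3 and 732.0, on cKO arrays that were brighter than the Control arrays at most percentiles.

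Cryga and Crygb, structural proteins of the fiber cell, were lower in cKO lenses by smaller amounts. Cryga read 13.90 and 13.72 in cKO lenses against 14.47 and 14.49 in Control lenses, a difference of -0.67 ± 0.14 (SE, n = 2 and 2; limma adjusted p = 0.0294). Crygb read 14.13 and 13.97 against 14.58 and 14.72, a difference of -0.60 ± 0.14 (SE, n = 2 and 2; limma adjusted p = 0.0424). For both genes the cKO lenses lay below the Control lenses. Crygb sat close to the threshold, and tested as a probe among 16262 probes it was not called (limma adjusted p = 0.0512). By probe, 3 of 11 were called, all lower in cKO lenses (Crygf, Cryge and Cryga), beside 5.5% of all probes called lower.

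Crygc, Crygd, Crygn and Crygs were not called. Crygc read 15.00 on 3 of the arrays and 15.04 in Control B, because it held rank 8, 8, 8 and 7 and quantile normalization gives equal values to equal ranks. The difference was -0.02 ± 0.13 (SE). Crygd differed by -0.02 ± 0.13 (SE) and its probes pointed in opposite directions, at -0.09 for probe 1 and 0.06 for probe 2. Crygs differed by -0.06 ± 0.14 (SE), and its lenses overlapped. Crygn read 14.56 and 14.35 in cKO lenses against 14.65 and 14.72 in Control lenses. Its genotypes did not overlap, yet the difference of -0.23 ± 0.15 (SE) missed the threshold (limma adjusted p = 0.321).

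Before normalization and over the whole array, the genotypes did not overlap for 75.8% of all probes with cKO higher and for 3.03% with cKO lower. Among the 11 gamma crystallin probes these counts were 4 and 3. The 3 that were lower without overlap were the probes for Cryga, Crygb and Crygf. For the 9 bright probes the ratio of cKO to Control ran from 0.831 for Cryga to 1.16 for Crygc, and 7 of the 9 ratios were above 1. In the deposited normalized table, where 31.9% of all probes did not overlap with cKO lower, all 11 gamma crystallin probes did so. There the ratio of the bright probes ran from 0.447 for Cryga to 0.627 for Crygc, with 0.495 for Cryge and 0.140 for Crygf.

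The scaling of the arrays set how many gamma crystallins were called. With the deposited normalized table and 16 units added, all 8 genes were called lower in cKO lenses (6.46% of all genes called lower), with log2 fold changes from -0.67 for Crygc to -2.78 for Crygf. When the median of the probes detected on all arrays was made equal, 7 of 8 were called, beside 17.6% of all genes called lower, and equal 99th percentiles also gave 7 of 8, beside 20.2%. Cyclic loess called the same number as quantile normalization, 4 of 8, beside 5.88%. With no normalization between arrays, Crygf alone was called, at -1.93, beside 1.15% called lower, and all genes had a median of 0.57. Equal medians over all probes likewise called Crygf alone, at -1.97, beside 1.25%. Relative to the median of 0.57 with no normalization, Cryga at -0.26, Crygb at -0.17 and Cryge at -0.12 stood lower than they do relative to 0.

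Over the 16 alternatives that kept all 4 arrays, Crygf was lower in cKO lenses in 16 and called in 15. The exception was the deposited table with values under 1 set to 1, where Crygf stood at -2.87 (limma adjusted p = 0.0573) and 7 of all genes were called, 0.0608%. Without a filter on detection Crygf was the single member called (limma adjusted p = 0.0448), beside 0.36% of all genes called lower. Tested there as a single probe, Crygf was not called (limma adjusted p = 0.0563). Cryga, Crygb and Cryge were also lower in 16 of 16 and called in 12 of 16 each. The sign was not fixed for the other members. Crygc, Crygn and Crygs were higher in cKO lenses in 2 of 16 alternatives and Crygd in 3 of 16, at 0.22 or less, and none of these higher values was called.

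**Figure D3:**
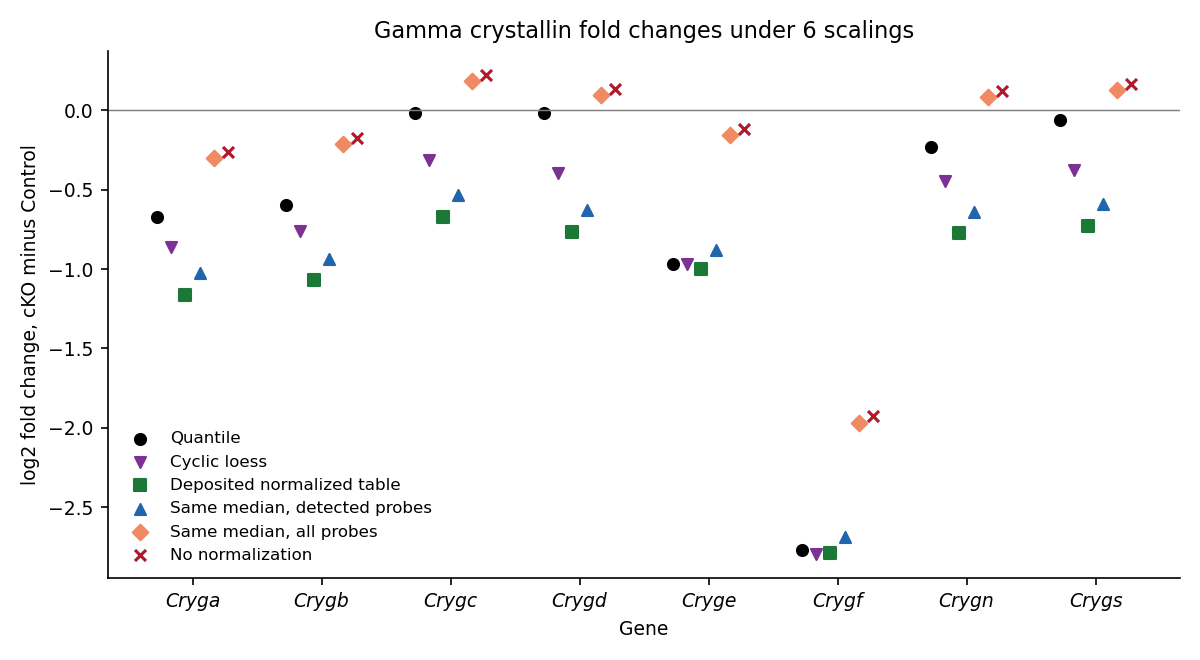
Log2 fold change, cKO minus Control, of the 8 gamma crystallin genes (x axis) under 6 ways of scaling the arrays to each other, 1 symbol per scaling. Crygf lay between -2.79 and -1.93 under these scalings, while Crygc, Crygd, Crygn and Crygs lay on both sides of 0.

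Leaving out single arrays had a marked effect on the count. Without cKO A or without Control A, 2 of the 8 genes were called, Crygf and Cryge, beside 3.07% and 5.61% of all genes called lower. Without cKO B or without Control B, Crygf was the single member called, beside 0.935% and 0.786%. As a gene, Crygf stood at -3.08 to -2.46 in such fits. Tested as a single probe, it was not called without Control B, at -2.74. The group left with 1 array was assumed to vary like the other.

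The members were next compared with each other on the same array, where a factor that scales the whole array cancels. Quantile normalization and an added offset do not cancel. Most of the other members lie at the bright end, where the ratio between the genotypes narrowed. The part of that narrowing in these differences was not tested. Crygf minus the median of the other 7 genes was -6.36 in cKO A, -6.83 in cKO B, -4.43 in Control A and -4.57 in Control B, on log2 values of the deposited table. Against its relatives, Crygf fell by 2.09 on the log2 scale between Control and cKO lenses. The exact two-sided permutation p was 0.333, which is the smallest that 2 against 2 arrays can give. Against Cryge alone, the log2 difference was -1.20 and -1.64 for the cKO arrays and 0.42 and 0.45 for the Control arrays. Only the shift of -1.85 between the genotypes can be read, since the level of one probe against another is a property of the probes. Both references were chosen after the data had been seen. Against the mean of the other 7 genes in place of their median, Crygf differed by -2.40 after quantile normalization and by -1.90 on the deposited table with 16 units added.

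On the same measure, Cryga differed between cKO and Control by -0.39, Crygb by -0.30 and Cryge by -0.24, whereas Crygc, Crygd, Crygn and Crygs differed by 0.30 to 0.40. Against the mean of the others, which holds Crygf itself, the value shrank for Cryga and turned positive for Crygb. For Cryge it kept its sign after quantile normalization and turned positive on the deposited table. After quantile normalization Cryga then differed by -0.0064, Crygb by 0.080 and Cryge by -0.34. On the deposited table with 16 units added they differed by -0.047, 0.056 and 0.14. With the median as reference, the cKO and Control arrays did not overlap for any of the 8 genes, and each exact p was 0.333. These outcomes are not separate, since a fall of some members against the reference raises others. Crygb and Crygn had the same values with opposite signs, because each served as the reference of the other. The measure was not taken for genes outside the family. Each gene's difference depends on the others, since the 8 share 1 array.

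**Figure D4:**
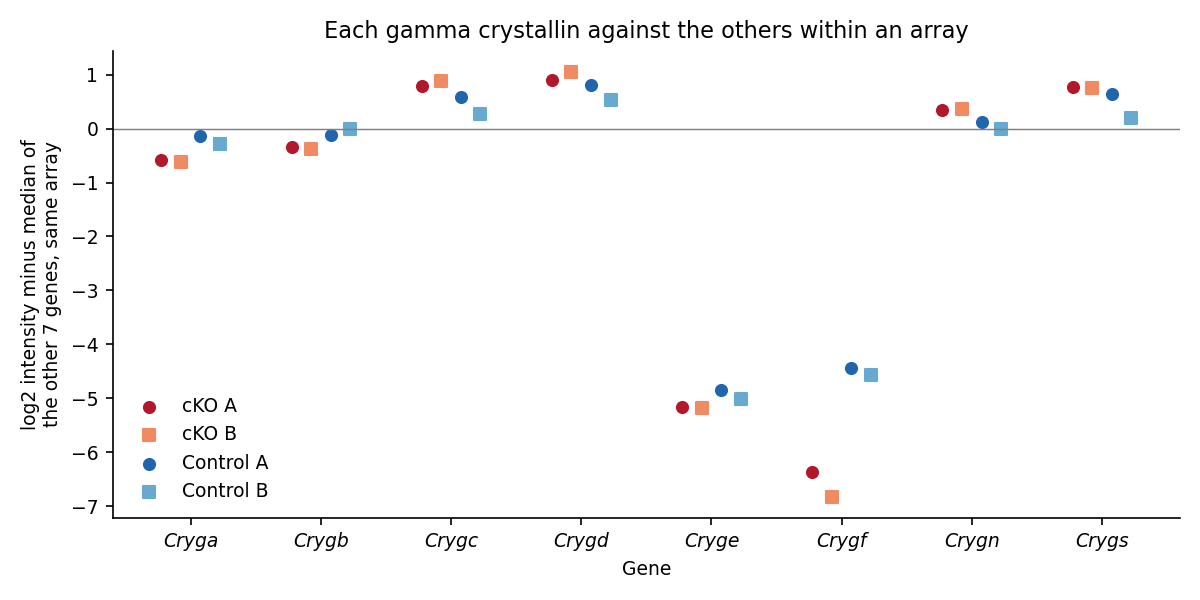
Log2 intensity of each gamma crystallin gene minus the median of the other 7 genes on the same array (y axis), for 2 cKO and 2 Control arrays, from the deposited normalized table. Crygf fell from -4.43 and -4.57 on the Control arrays to -6.36 and -6.83 on the cKO arrays; the height of one gene against another is a property of the probes and is not a comparison of levels.

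Other crystallins are shown beside the gamma family. Of the 13 genes listed, 10 were tested and 0 were called by limma, with 1 at an unadjusted p under 0.05, beside 11.7% of all genes called. That gene was Crybg1, a distant member of the beta and gamma crystallin superfamily, which read higher in cKO lenses by 0.48 (limma adjusted p = 0.139). Cryaa, the small heat shock protein of the fiber cell, differed by -0.22 ± 0.14 (SE) and its partner Cryab by -0.24 ± 0.15 (SE). The median log2 fold change of the 10 genes was -0.11. With the deposited normalized table and 16 units added, 5 were called, all lower in cKO lenses, beside 6.46% of all genes called lower. With no normalization between arrays, and with equal medians over all probes, 1 was called, higher in cKO lenses, where 49.1% and 45.8% of all genes were called higher.

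Genes of fiber cell differentiation other than crystallins were mostly lower in cKO lenses. The list held 17 genes. Tests were possible for 15 of them, and 9 passed, all lower in cKO lenses, with a median over the 15 of -0.69, beside 5.64% of all genes called lower. Fewer of them were called when single arrays were left out, where a smaller share of all genes was called lower as well. With no normalization between arrays, and with equal medians over all probes, 6 were called, 4 lower and 2 higher in cKO lenses, beside 1.15% and 1.25% of all genes called lower and 49.1% and 45.8% called higher. Dnase2b, the nuclease that degrades the DNA of maturing fiber cells, fell by 1.60 on the log2 scale. Lenep, first described in lens epithelium, fell by 1.70. Lctl, a klotho-family membrane protein, fell by 1.64. Birc7, an inhibitor of apoptosis, fell by 1.45, Caprin2 by 0.89 and the lens beaded filament gene Bfsp2 by 0.76. Hspb1, a small heat shock protein, fell by 0.69, and the RNA-binding proteins Rbm24 and Tdrd7 by 0.66 and 0.62. Mip, the main water channel of the fiber cell membrane, differed by -0.07 and was not called. It read 14.75 on cKO A, Control A and Control B and 14.61 on cKO B, where quantile normalization gives equal values to equal ranks.

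Of the 14 transcription factors listed as regulators of crystallin genes, 10 were tested and 2 were called, both lower in cKO lenses, beside 5.64% of all genes called lower. No more of them were called when single arrays were left out, where a smaller share of all genes was called lower. With no normalization between arrays, and with equal medians over all probes, 3 were called and all 3 were higher in cKO lenses, beside 49.1% and 45.8% of all genes called higher. Maf, which binds the promoters of crystallin genes, read 6.37 and 5.98 in cKO lenses against 7.21 and 7.43 in Control lenses, a difference of -1.14 ± 0.18 (SE; limma adjusted p = 0.0142). Foxe3, a factor of the lens epithelium, read 5.14 and 5.08 against 5.94 and 5.87, a difference of -0.79 ± 0.14 (SE; limma adjusted p = 0.0176). Sox2 differed by -0.69 (limma adjusted p = 0.0546) and Hsf4, a heat shock factor of fiber cells, by -0.43 (limma adjusted p = 0.0785). Sox1 differed by 0.27, Prox1 by -0.37 and Mafg by 0.41, and none of these was called. The remaining factors on the list were not tested, since none of their probes was detected on 2 arrays.

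**Figure D5:**
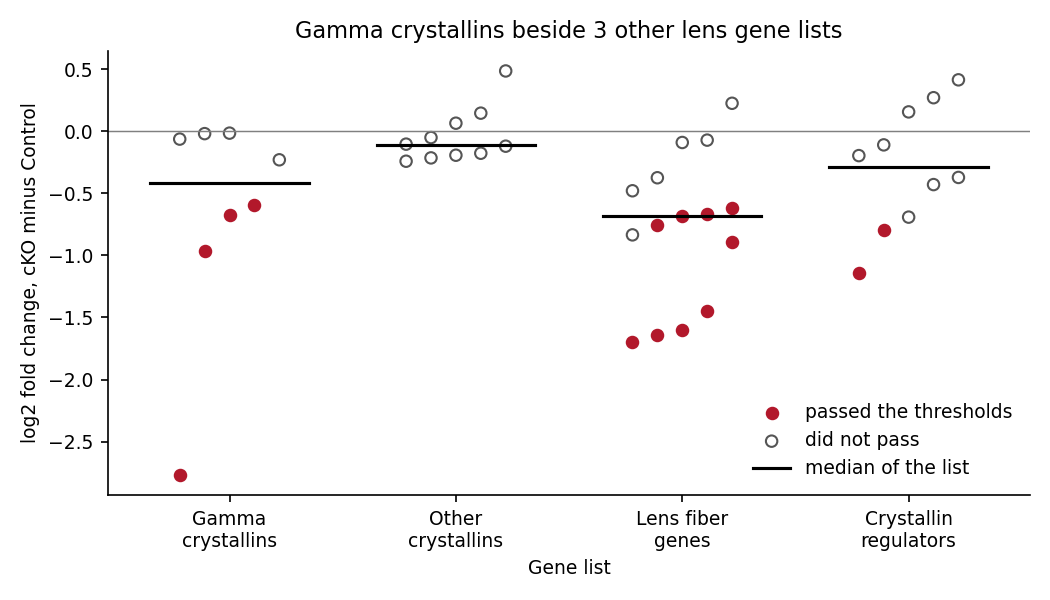
Log2 fold change, cKO minus Control, of each tested gene (points, filled where the gene passed the thresholds) in 4 lists, with the list median as a bar. The median was -0.41 for the 8 gamma crystallins, -0.11 for 10 other crystallins, -0.69 for 15 lens fiber genes and -0.28 for 10 crystallin regulators.

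Markers of other tissues were read beside these lists. All 8 lens fiber markers were detected, and 7 of 10 retina markers were detected on no array. The summed intensity of the retina markers was 714 and 738 on the cKO arrays against 710 and 644 on the Control arrays. All marker sums here are of intensities before normalization, where the cKO arrays were brighter than the Control arrays at most percentiles. The fold changes beside them are after quantile normalization. Of 5 muscle markers 4 were detected on no array, while Actn2, an actin crosslinker, fell by 3.70 on the log2 scale in cKO lenses. The summed intensity of the muscle markers was 440 and 298 against 1585 and 951. The hemoglobin genes Hbb-b1 and Hba-a1 differed by 0.05 and -0.08, with 1 other of 6 blood markers, Slc4a1, lower by 1.03. The cKO lenses stood apart, as Hba-a1 read 8.88 in cKO A and 7.62 in cKO B. The summed intensity of the blood markers was 4421.4 in cKO A and 2365.5 in cKO B against 2447.4 and 1689.9 on the Control arrays. Of 5 macrophage markers 2 were tested, of which Cd68 was higher in cKO lenses by 0.68 and Csf1r differed by -0.11 and was not called. Of 8 lens epithelium markers 7 were tested and 2 were called, Foxe3 and Pdpn, lower by 0.79 and 0.72 on the log2 scale, with a median over the 7 of -0.24, beside 5.64% of all genes called lower. Before normalization, the summed intensity of the epithelium markers was 17227 and 18199 on the cKO arrays against 15170 and 13617 on the Control arrays. All 5 vessel markers were tested and 0 were called by limma, with 3 at an unadjusted p under 0.05. Cdh5 at 0.58 and Cldn5 at 0.53 were above the Control lenses without overlap, and Kdr at -0.59 and Tek at -0.26 were below them. The summed intensity of the vessel markers before normalization was 866 and 906 against 634 and 515. The part of these differences in the gamma crystallin values was not tested.

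Across the 4 lenses, the genes whose centred log2 values were most like those of Crygf were Trex1, an exonuclease, Tcp11, and E130119H09Rik, with root mean square differences of 0.04, 0.06 and 0.10 log2 units. Those most like the mean of the 8 gamma crystallins were Dtnbp1, Rnf185 and Tmem42, at 0.01, 0.01 and 0.02 log2 units. With 4 lenses in 2 groups, any gene with a like difference between the groups and a like spread will be close by this measure.

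Promoters are shown because members with closely similar promoters differed in size of change. The sequences are RefSeq bases -100 to -1 before the annotated start, in build GRCm38.p6, with capitals marking the motifs named in the next paragraph.
Crygf, chr1:65926422-65926521, forward strand: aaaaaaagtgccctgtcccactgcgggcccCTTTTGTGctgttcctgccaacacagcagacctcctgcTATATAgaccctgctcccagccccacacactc
Cryge, chr1:65051164-65051263, reverse strand: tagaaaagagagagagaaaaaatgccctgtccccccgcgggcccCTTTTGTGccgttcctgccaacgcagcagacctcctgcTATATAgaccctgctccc
Crygd, chr1:65063441-65063540, reverse strand: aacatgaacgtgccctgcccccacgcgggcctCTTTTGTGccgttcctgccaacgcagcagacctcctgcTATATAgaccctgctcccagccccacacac
Cryga, chr1:65103364-65103463, reverse strand: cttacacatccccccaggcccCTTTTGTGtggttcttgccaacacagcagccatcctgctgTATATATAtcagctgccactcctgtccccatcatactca
Crygs, chr16:22811411-22811510, reverse strand: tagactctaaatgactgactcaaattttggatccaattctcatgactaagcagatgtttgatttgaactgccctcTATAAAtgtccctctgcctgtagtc

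Over the 300 bases around the start, the Cryge and Crygf promoters were identical at 261 of 286 aligned bases (91.3%), more identical bases than any other pair of the 8, and those of Crygd and Crygf at 227 of 281 (80.8%). In the main comparison Crygf differed by -2.77 and Cryge by -0.97, whereas Crygd differed by -0.02. The motifs were chosen after the sequences had been read, and both strands were searched over 300 bases. TATATA was found in 7 of 8 gamma crystallin promoters and in 5.67% of all 32851 promoters. TGCTGA was found in 4 of 8 and in 19.5% of all promoters. TATAAA, which was found in the Crygs promoter alone, was in 13.6% of all promoters. CTTTTGTG was found in the promoters of Cryga, Crygc, Crygd, Cryge and Crygf, 5 of 8, and in 1.37% of all promoters. The promoters that held CTTTTGTG included the 2 genes with the largest decreases and the 2 with the smallest differences in the main comparison. This order changed under other scalings. A match describes the letters in this window and does not show that a factor binds there.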

How the data were processed

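RNA from 4 lenses was hybridized to 4 single-color Illumina arrays. The authors deposited an unnormalized and a normalized table of probe intensity with a detection p-value and bead number per probe. Within each array the normalized values follow a straight line from the unnormalized ones. Of 45281 probes, 18 lines with shifted cells were left out, and 40 gene symbols turned into dates were restored.

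The unnormalized intensities were corrected with normexp (offset 16), log2 transformed and quantile normalized in limma 3.58.1 (R 4.3.3). Negative controls were inferred from the detection p-value. Probes with a detection p below 0.05 on at least 2 arrays (16262) were kept and averaged per gene. Genes were tested by lmFit and eBayes with Benjamini-Hochberg adjustment. The study's methods used edgeR, a count model that was not applied to intensities here. The test was checked on simulated data. Exact permutation tests were run in SciPy 1.17.1. Sequences were aligned with Biopython 1.88, from the array annotation and from RefSeq promoters, of which all 8 genes had 1 each. The number of arrays limits the precision.

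Samples were grouped by their titles. Alternatives changed the table, background, scaling, filter, probe averaging, gene naming, test options, replicate block and arrays used. The genes named are the 8 members, Celf1, list genes called with Cryaa, Cryab, Hsf4, Xist and Ddx3y, and the 3 genes nearest in pattern to Crygf and the 3 nearest to the mean of the members. Crybg1, Mip, Sox1, Sox2, Prox1, Mafg, Actn2, Slc4a1, Cd68, Csf1r, Uty, Pdpn, Cdh5, Cldn5, Kdr, Tek and the hemoglobin genes were named after their values had been seen. The members and gene lists were chosen with earlier results of these data known. No protein sequences were used here.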

Additional observations from a re-analysis of the deposited data

How the results depend on the processing

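Tested as a gene, Crygf kept its direction under every alternative run. With all 4 arrays it was called under all but the deposited normalized table when its values were floored at 1. Tested as a single probe, Crygf was also not called without the detection filter (limma adjusted p = 0.0563). Nor was the probe called without Control B, at -2.74. Cryga, Crygb and Cryge kept their direction under every alternative. With that floor, 0 gamma crystallin genes, 0 of their probes, 0 lens fiber genes, 0 regulators and 7 of all genes were called, at a gamma crystallin median of -0.89. With 16 added to the deposited table instead, 8 gamma crystallin genes, 11 of their probes and 5 other crystallins were called (median -0.89), and the within-array difference of Cryge from the mean of the others reversed to 0.14 from -0.34. With no normalization 1 gamma crystallin gene and 1 of their probes were called lower in cKO lenses, 1 other crystallin and 3 regulators higher, 6 lens fiber genes (4 lower) and 5790 of all genes (133 lower). There the median turned to 0.0018, Crygc to 0.22, Crygd to 0.13, Crygn to 0.12, Crygs to 0.17 and the within-array difference of Cryge to 0.13. With equal medians over all probes the counts of called list genes were the same, 5418 of all genes were called (144 lower), and the gamma crystallin median was -0.036, Crygc 0.19, Crygd 0.094, Crygn 0.084 and Crygs 0.13. Equal medians over detected probes gave 7 gamma crystallin genes, 9 probes, 4 other crystallins and 2691 of all genes (median -0.76). Equal 99th percentiles gave 7, 10, 5 and 2929 (median -0.80). Cyclic loess gave 1 other crystallin and a median of -0.60. Without the detection filter 1 gamma crystallin gene, 0 probes, 2 lens fiber genes, 1 regulator and 207 of all genes were called. Without background correction 1 regulator was called, and with an offset of 50 1 regulator and 789 of all genes. With the brightest probe per gene Crygd turned to 0.059. Against the median of the other members, chosen after seeing the data, the within-array difference of Crygb was -0.30 (0.08 against the mean). Beyond what the scalings and filters change by construction, the cause of these changes was not tested.

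Leaving out each array in turn gave 1 to 2 gamma crystallin genes called, 0 to 2 probes, 3 to 6 lens fiber genes, 0 to 2 regulators and 163 to 1364 of all genes, with a gamma crystallin median of -0.54 to -0.32. The 1364 calls over all genes came with Control A left out, while 594 and 163 came with cKO A and cKO B left out and 181 with Control B left out. Crygd ran from -0.037 to 0.0093, with the value above 0 without Control A, and Crygc from -0.033 to 0, with 0 without Control B. The replicate letters were not taken as pairs: the difference between A and B correlated at -0.01 between the genotypes over all genes. With the letter as a replicate block, 4 gamma crystallin genes and 1686 of all genes were called. All member probes were above background, but 9 of 11 lie at the bright end, where the intensity ratio between the genotypes narrowed from 1.72 at the 99th percentile to 1.09 at the brightest probe, so their values rest on the scaling as well as on the number of arrays.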
